A study of Mus musculus with 28 samples.

Results

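Replication-dependent histone genes encode the linker histone H1 and the core histones H2A, H2B, H3 and H4 that package newly copied DNA. They were taken here as all mouse genes whose older symbol begins with Hist1h, Hist2h, Hist3h or Hist4h. The rule found 70 genes among the 54109 identifiers of a table of reprogramming cells, and the same 70 among the 54838 identifiers of a separate table of induced pluripotent stem cells (iPSC). By protein, 6 encode H1, 20 H2A, 19 H2B, 12 H3 and 13 H4, pseudogenes included. By symbol, 56 belong to Hist1, 10 to Hist2, 3 to Hist3 and 1, Hist4h4, to Hist4. The Hist1 genes form a cluster on chromosome 13, except that Hist1h2al lies far from the others (chr13:51200084-51203066) and Hist1h2ap could not be placed.

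RNA sequencing was done on 18 libraries in 6 groups of 3. The reprogramming cells were fibroblasts from mouse embryos of E13.5 to E15.5 (embryonic day), in which doxycycline (DOX, 1 µg/ml) switches on the reprogramming factors. Their groups were DOX with 3C and UNC0638, DOX with 3C, DOX with UNC0638, and DOX alone. 3C is a mix of L-ascorbic acid at 50 µg/ml, CHIR99021, which inhibits the kinase GSK3, at 3 µM, and, at 250 nM, TGF-b RI Kinase Inhibitor II. UNC0638 (1 µM) inhibits the H3K9 methyltransferases G9a and GLP. The iPSC groups came from reprogramming with UNC0638 for the first 48 hours and from reprogramming with DMSO. All fibroblasts were heterozygous for Rosa26-rtTA and Oct4-GFP and carried an inducible OKSM allele (heterozygous) or OKS allele (homozygous), and they grew on irradiated feeder cells. Which libraries carried which allele, when RNA of the reprogramming cells was taken, and whether replicates were separate cultures or embryos is not given in the sources used here. The p-values therefore measure the spread between these libraries, which may be technical.

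Most replication-dependent histone genes have no introns, and their mRNAs end in a stem-loop bound by the protein SLBP instead of a poly(A) tail. The mRNAs build up in S phase, when DNA is copied, and are degraded when replication stops. Their transcription depends on NPAT, a coactivator that sits in nuclear histone locus bodies. Some members, among them Hist1h2bc and Hist2h2be, are also known to make polyadenylated transcripts.

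Promoters from RefSeq (GRCm38.p6, the assembly of the mm10 coordinates used here) matched 61 of the 70 genes. Each window held 250 bases before the start and 50 after it. 4 motifs were searched on both strands. The octamer ATTTGCAT, a binding site of POU-domain factors, was in 21.3% of the histone windows and in 1.74% of all 32851 windows. It was in 7 of 17 H2A and 6 of 16 H2B windows and in none of the H1, H3 or H4 windows. The TATA box TATAAA was in 57.4% of histone windows, against 13.6% of all windows. CCAAT was in 85.2%, against 37.4%: in each of the 6 H1, 17 H2A, 16 H2B and 10 H3 windows, but in 3 of 12 H4 windows. The H1 box AAACACA was in 5 of 6 H1 windows and in 14.8% of histone windows, against 7.18% of all windows. No motif contains another, and a match is a description of letters only.

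The 130 bases before the start are printed for 8 genes named in the results below. Hist4h4, Hist1h1t, Hist1h2af, Hist1h2bf and Hist1h4i had called differences. Hist1h4d, Hist1h1e and Hist1h2bb, each among the 2 most abundant of its family, are abundant genes of the same families with none. Whether these bases bear on any call was not tested. Each runs 5′ to 3′ in the direction of the gene, and capitals mark matches to the 4 motifs.
Hist4h4 (chr6:136804432-136804561, minus strand): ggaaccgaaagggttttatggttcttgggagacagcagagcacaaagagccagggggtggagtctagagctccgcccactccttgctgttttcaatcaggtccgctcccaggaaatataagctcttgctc
Hist1h4d (chr13:23581438-23581567, plus strand): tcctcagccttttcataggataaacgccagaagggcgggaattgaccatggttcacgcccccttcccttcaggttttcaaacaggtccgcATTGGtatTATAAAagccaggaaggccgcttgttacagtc
Hist1h4i (chr13:22041363-22041492, minus strand): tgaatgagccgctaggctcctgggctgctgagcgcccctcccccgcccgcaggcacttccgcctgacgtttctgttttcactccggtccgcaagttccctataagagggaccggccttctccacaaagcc
Hist1h1t (chr13:23695681-23695810, plus strand): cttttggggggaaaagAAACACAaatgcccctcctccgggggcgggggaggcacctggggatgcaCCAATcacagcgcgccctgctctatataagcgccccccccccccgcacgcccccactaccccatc
Hist1h1e (chr13:23622559-23622688, minus strand): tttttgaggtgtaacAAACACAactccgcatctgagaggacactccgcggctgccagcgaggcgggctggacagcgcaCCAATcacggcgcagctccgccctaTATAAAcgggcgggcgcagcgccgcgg
Hist1h2af (chr13:23533745-23533874, plus strand): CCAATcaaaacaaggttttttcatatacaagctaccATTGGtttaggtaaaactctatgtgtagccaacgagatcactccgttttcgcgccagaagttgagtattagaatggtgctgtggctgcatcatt
Hist1h2bf (chr13:23574208-23574337, minus strand): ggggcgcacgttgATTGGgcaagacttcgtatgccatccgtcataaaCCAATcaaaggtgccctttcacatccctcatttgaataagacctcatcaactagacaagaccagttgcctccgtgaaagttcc
Hist1h2bb (chr13:23746604-23746733, plus strand): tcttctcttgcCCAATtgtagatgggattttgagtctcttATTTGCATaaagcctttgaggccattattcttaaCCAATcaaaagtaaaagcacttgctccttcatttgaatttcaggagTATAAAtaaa

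Hist4h4 had none of the 4 motifs in these 130 bases, and Hist1h4d had a TATA box 32 bases and a CCAAT box, on the opposite strand, 40 bases before the start. Hist1h1t and Hist1h1e shared the H1 box, 114 and 115 bases before the start, and the CCAAT box, 65 and 52 bases before it, while TATAAA was found in Hist1h1e only. Hist1h2bb carried the octamer 90 bases before the start.

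Histone genes took 0.798 to 1.01% of the reads in genes of a reprogramming library, which held 10616764 to 20211641 such reads. Their summed level, in read counts that the authors had divided by 1 factor per library (normalised counts below), was 135740 ± 14261 with 3C and UNC0638, 146740 ± 6095 with 3C, 131339 ± 5327 with UNC0638 and 137096 ± 8879 with DOX alone (SD, n = 3 each). The family shares moved little between the 12 libraries. H1 took 35.1 to 35.9% of histone reads, H4 24.5 to 25.8%, H2B 15.0 to 15.9%, H3 14.3 to 15.2% and H2A 8.82 to 9.69%. The 10 most abundant members held 55.2% of histone reads.

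Abundance ran over several orders of magnitude. 37 members averaged at least 1000 normalised counts and 12 averaged under 1. Of these 12, 7 were listed at 0 reads in every reprogramming library: Hist1h2ao, Hist1h2br, Hist2h2aa1, Hist2h2aa2, Hist2h2bb, Hist2h3b and Hist2h3c1. Several of these have a near-identical copy. The promoter windows of Hist1h2bq and Hist1h2br share an unbroken run of 300 bases, those of Hist1h4m and Hist1h4n 285, those of Hist2h3c2 and Hist2h3c1 231, and those of Hist2h2aa2 and Hist2h2aa1 219, against a median longest run of 9 bases over 382 pairs of one family. How the authors' counting treated reads that align to more than 1 gene is not given, so the levels of such copies are uncertain.

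Per kilobase of gene span, the H1 genes were near one another. Hist1h1e (H1.4) had 13875 normalised counts per kilobase over the 12 libraries, Hist1h1c (H1.2) 13273, Hist1h1b (H1.5) 12929, Hist1h1d (H1.3) 12654 and Hist1h1a (H1.1) 11117. Hist1h1t, the linker histone of the testis, had 29.1. Among core histones the highest per kilobase were Hist1h4d with 20786 (H4), Hist1h2bb with 8930 (H2B), Hist1h3b with 5796 (H3) and Hist1h2ak with 5115 (H2A).

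A gene was tested where it reached 10 normalised counts in at least 3 of the 12 libraries. This left 57 of the 70 members (6 H1, 14 H2A, 15 H2B, 10 H3, 12 H4) among 16138 genes. Tests used limma on log2(value + 1), all 12 libraries in 1 fit, with Benjamini-Hochberg adjustment over all genes. Calls are genes whose adjusted p was below 0.05, and fold changes are on this log2 scale with their standard errors.

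**Figure D1:**
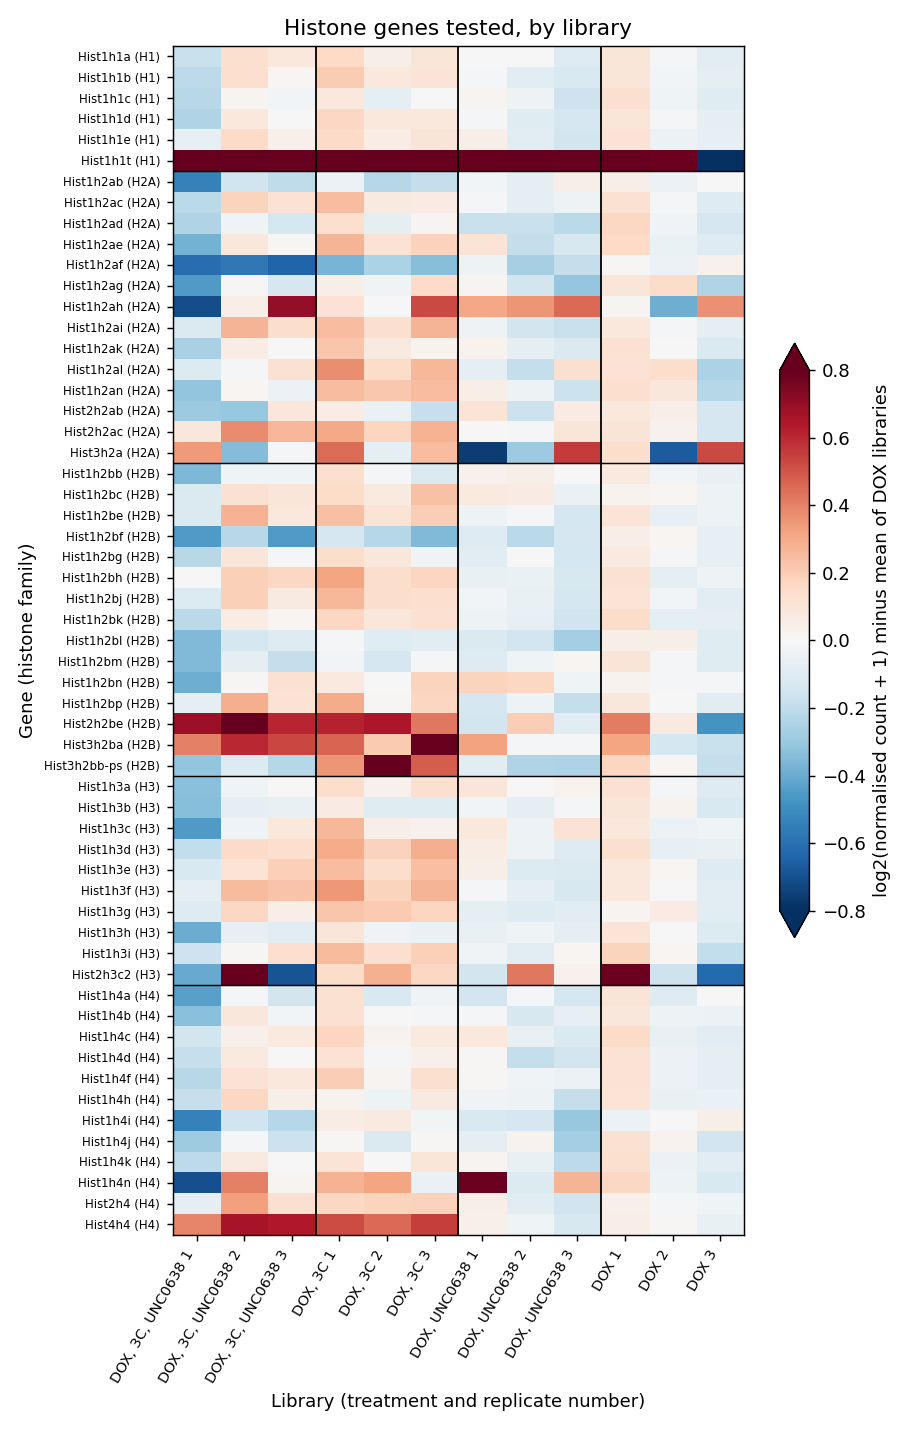
Each row is one of the 57 histone genes tested and each column a library; colour gives log2(normalised count + 1) minus the mean of the DOX libraries, clipped at -0.8 and 0.8. Most rows change little, library DOX with 3C and UNC0638 replicate 1 is low down most of its column, and Hist4h4, Hist2h2be and Hist1h1t are high in the 6 libraries with 3C. Hist1h1t is also high in the libraries of DOX with UNC0638.

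Adding 3C to DOX raised 11 and lowered 2 of the 57 histone genes; over all genes tested 49.4% were called, 24.7% higher and 24.7% lower. The median difference of the histone genes was 0.12 on the log2 scale, against 0.02 over all genes, and 47 of 57 had a positive difference. Those raised were Hist4h4, Hist1h1t, 4 H3 genes (Hist1h3d, Hist1h3e, Hist1h3f and Hist1h3g), Hist1h2ai, Hist1h2al, Hist2h2ac, Hist1h2bh and Hist1h2bj, and those lowered were Hist1h2af and Hist1h2bf. In bulk RNA, fewer cells of a type and less RNA per cell cannot be told apart. With UNC0638 in both media, 3C raised 9 and lowered 3 of the 57 (47.4% of all genes called), with a median of 0.02, against 0.01 over all genes. The sign of this histone median rested on single libraries: it was 0.10 without DOX with 3C and UNC0638 replicate 1 and -0.04 without replicate 2 of that group, and negative too without replicate 3. Hist4h4, Hist1h1t, Hist1h2ai, Hist2h2ac, Hist1h2bh and Hist1h3f rose again, as did Hist2h2be, Hist2h4 and Hist1h2bp, and Hist1h2af, Hist1h2bf and Hist1h2ab fell. In all, 8 members were called with 3C in both media and 17 in either. These 2 comparisons share no library. The sign of the difference was the same in both for 42 of 57. Calls in both media and shared signs were not counted over all genes. The 2 comparisons called 22.8% and 21.1% of the histone genes, against 49.4% and 47.4% of all genes.

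Hist4h4 (ENSMUSG00000096010, mm10 chr6:136803993-136804431, H4) had 2793, 3374 and 3330 normalised counts with 3C and UNC0638, 3067, 2919 and 3123 with 3C, 2196, 2086 and 1952 with UNC0638, and 2210, 2146 and 2044 with DOX alone. Every library with 3C was above every library without it. The log2 fold change with 3C was 0.51 ± 0.07 without UNC0638 (adjusted p = 5.99e-06, limma) and 0.60 ± 0.07 with it (adjusted p = 8.3e-07, limma). The other H4 genes encode the same core histone from the clusters on chromosomes 13 and 3. Of these, Hist2h4 was called only with UNC0638 present (0.19 ± 0.08, adjusted p = 0.0457, limma), at 2304, 3046 and 2647 with 3C and UNC0638, against 2502, 2287 and 2171 with UNC0638. Its groups overlapped, and the call was lost without DOX with UNC0638 replicate 2 or 3, without DOX with 3C and UNC0638 replicate 2 or 3, and on leaving out each DOX or DOX with 3C library. Hist1h4d, the most abundant H4 gene, differed by 0.05 ± 0.07 with 3C and 0.07 ± 0.07 with 3C beside UNC0638.

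Hist1h1t (ENSMUSG00000036211, mm10 chr13:23695811-23696545) was low in each group. It had 51.3, 52.1 and 26.5 normalised counts with 3C and UNC0638, 27.3, 19.3 and 27.8 with 3C, 14.5, 15.3 and 8.03 with UNC0638, and 8.58, 6.005 and 0 with DOX alone. These rest on 24 to 44 reads, 23 to 36, 9 to 17, and 0 to 7. The groups with 3C lay above their counterparts without it, and the log2 fold change with 3C was 2.65 ± 0.59 without UNC0638 (adjusted p = 0.00116, limma) and 1.69 ± 0.59 with it (adjusted p = 0.0258, limma). The first value was 1.64 without DOX replicate 3, the library with 0 reads, and 3.27 without DOX replicate 1, and was called in both. The second call was lost without DOX with UNC0638 replicate 3, and without DOX with 3C and UNC0638 replicate 1 or 2 (adjusted p of up to 0.0973). None of the 5 abundant H1 genes was called in any comparison. Hist1h1e, for one, had a 3C difference of 0.10 ± 0.07 in both media.

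Hist1h2af (ENSMUSG00000061991, mm10 chr13:23533875-23534378, H2A) fell in 3 comparisons. It had 316, 325 and 309 normalised counts with 3C and UNC0638, 373, 404 and 381 with 3C, 470, 402 and 422 with UNC0638, and 487, 467 and 495 with DOX alone. Its difference with 3C was -0.32 ± 0.08 without UNC0638 (adjusted p = 0.00156, limma) and -0.44 ± 0.08 with it (adjusted p = 9.24e-05, limma), and the groups did not overlap. Hist1h2ab, an abundant H2A gene of the same cluster, had 1821, 2367 and 2295 with 3C and UNC0638, against 2601, 2519 and 2728 with UNC0638 (-0.28 ± 0.08, adjusted p = 0.00619, limma). Other H2A genes moved the opposite way. Hist2h2ac had 1324, 1208 and 1301 with 3C, against 1149, 1095 and 977 with DOX alone (0.25 ± 0.07, adjusted p = 0.00912, limma). That call was lost without DOX replicate 3. With 3C and UNC0638 it had 1143, 1393 and 1288, against 1068, 1064 and 1143 with UNC0638 (0.22 ± 0.07, adjusted p = 0.0222, limma). These groups overlapped by 1 library, and the call was lost without replicate 1 or 2 of the UNC0638 group and without replicate 2 or 3 of the group with both agents.

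Hist1h2ai, also H2A, had 1664, 1534 and 1697 normalised counts with 3C, against 1489, 1392 and 1335 with DOX alone (0.22 ± 0.08, adjusted p = 0.0325, limma). It had 1295, 1692 and 1549 with 3C and UNC0638, against 1367, 1266 and 1241 with UNC0638, where 1 library overlapped (0.22 ± 0.08, adjusted p = 0.0305, limma). The calls were lost under 5 leave-out or filter settings each, among them without DOX replicate 3 and without DOX with 3C and UNC0638 replicate 2. Hist1h2al, annotated as a transcribed pseudogene, had 794, 680 and 738 with 3C, against 663, 675 and 514 with DOX alone (0.26 ± 0.10, adjusted p = 0.0429, limma). Neither edgeR nor DESeq2 called it, nor did limma without DOX replicate 3 or without DOX with 3C replicate 1 or 3.

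**Figure D2:**
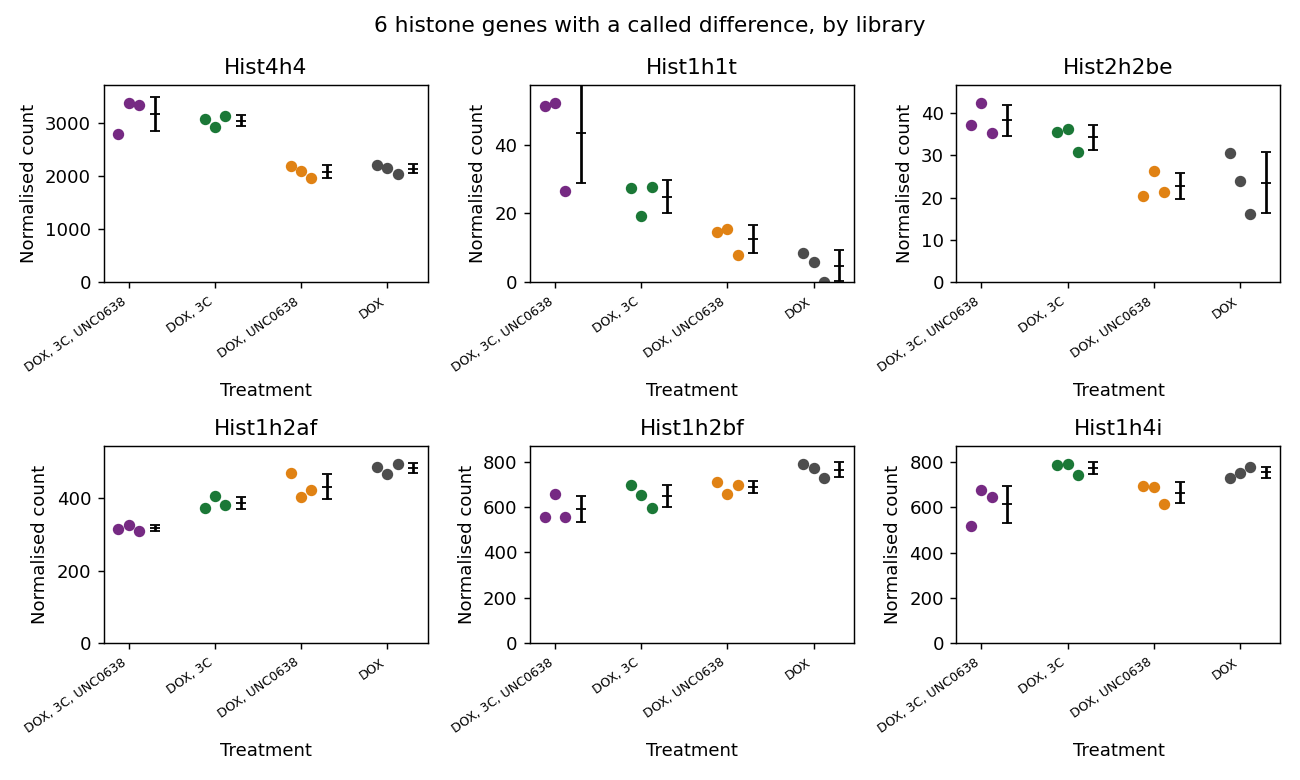
Normalised counts of 6 histone genes in each library (points) with the group mean and SD (bar) on axes that start at 0. Hist4h4 and Hist1h1t are higher in both groups with 3C than in their counterparts, Hist2h2be is higher with 3C and UNC0638 than with UNC0638, Hist1h2af and Hist1h2bf are lower with 3C in both media, and Hist1h4i is lower with 3C and UNC0638 than with 3C.

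Among H2B genes, Hist1h2bf (ENSMUSG00000069268, mm10 chr13:23573760-23574207) had 696, 654 and 598 normalised counts with 3C, against 792, 775 and 729 with DOX alone (-0.24 ± 0.08, adjusted p = 0.0146, limma). It had 558, 656 and 558 with 3C and UNC0638, against 711, 659 and 698 with UNC0638 (-0.23 ± 0.08, adjusted p = 0.0211, limma). The first call was lost without DOX replicate 1 or DOX with 3C replicate 3, and the second without either replicate 1 or 3 of either of its groups. Hist1h2bh moved the other way, with 2808, 2480 and 2535 with 3C, against 2451, 2129 and 2186 with DOX alone (0.21 ± 0.07, adjusted p = 0.0139, limma). That call was lost without DOX replicate 2 or 3 or DOX with 3C replicate 1. With 3C and UNC0638 it had 2252, 2575 and 2529, against 2165, 2167 and 2057 with UNC0638 (0.20 ± 0.07, adjusted p = 0.0186, limma), with no overlap. This call was lost without DOX with UNC0638 replicate 3 or DOX with 3C and UNC0638 replicate 2 or 3. Hist1h2bj with 3C (0.18 ± 0.07, adjusted p = 0.0445, limma) and Hist1h2bp with 3C beside UNC0638 (0.23 ± 0.09, adjusted p = 0.049, limma) lay close to the threshold. Their calls were lost under 10 and 11 of 21 alternatives, DESeq2 among them.

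Hist2h2be (ENSMUSG00000068854, mm10 chr3:96221072-96223738), one of the H2B genes with polyadenylated transcripts, was far less abundant. It had 37.3, 42.4 and 35.4 normalised counts with 3C and UNC0638, against 20.5, 26.3 and 21.4 with UNC0638 (0.73 ± 0.24, adjusted p = 0.0179, limma). Without UNC0638 it had 35.6, 36.3 and 30.9 with 3C, against 30.7, 24.02 and 16.1 with DOX alone, which was not called (0.56 ± 0.24, adjusted p = 0.0624, limma). The call was lost without DOX with UNC0638 replicate 1 or 3 and without DOX with 3C and UNC0638 replicate 2.

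The 4 H3 genes raised by 3C lay within chr13:23535418-23576266. The same stretch also holds Hist1h2bf, which 3C lowered, and histone genes that were not called, such as Hist1h4f and Hist1h1d. Hist1h3f (ENSMUSG00000100210, mm10 chr13:23544052-23544954) had 5545, 4941 and 5270 normalised counts with 3C, against 4621, 4355 and 4122 with DOX alone. The groups did not overlap, and its difference was 0.27 ± 0.07 (adjusted p = 0.00611, limma). Hist1h3d (0.26 ± 0.08), Hist1h3e (0.21 ± 0.07) and Hist1h3g (0.20 ± 0.06) followed, and all 3 calls were lost without DOX replicate 3. With UNC0638 in both media, Hist1h3f was the H3 gene called (0.21 ± 0.07, adjusted p = 0.0262, limma), at 4154, 5205 and 5099 with 3C and UNC0638, against 4326, 4128 and 3989 with UNC0638. There replicate 1 with both agents lay inside the range of the UNC0638 libraries, and the call was lost without replicate 2 or 3 of either group.

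**Figure D3:**
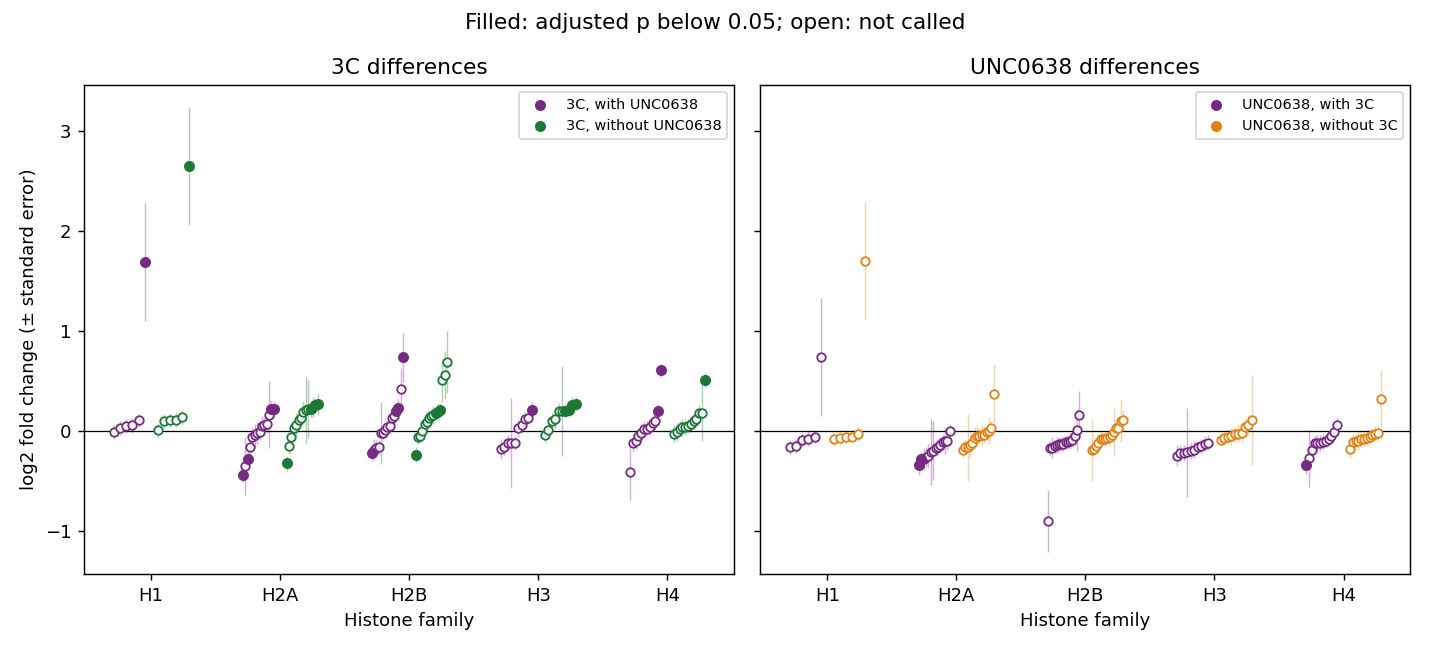
Log2 fold changes with standard errors of the 57 histone genes by family, for 3C (left) and UNC0638 (right), each with and without the other agent. Filled points are called; the 3C calls include Hist1h1t, the 2 high H1 points, and Hist4h4, the highest H4 points at 0.60 and 0.51, and no gene was called for UNC0638 without 3C.

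The counts depended on single libraries. Without DOX replicate 3 the first 3C comparison called 5 histone genes, and without DOX with 3C replicate 1 or 3 it called 8 each. The second called 4 without DOX with UNC0638 replicate 3 and 6 without DOX with 3C and UNC0638 replicate 2. Over all genes, deviations of same-numbered libraries correlated weakly, at 0.106 to 0.156 in the first and 0.155 to 0.205 in the second. The histone genes did not follow this in the second. Their median deviations were 0.06, -0.01 and -0.06 in DOX with UNC0638 replicates 1, 2 and 3. In DOX with 3C and UNC0638 they were -0.18, 0.12 and 0.06. With the replicate number as a block the first comparison called 20.

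Adding UNC0638 to DOX called none of the 57 histone genes, against 0.607% of all genes. The histone median was -0.06, and 45 of 57 differences were negative. This median was -0.0036 without DOX replicate 1 and -0.11 without DOX replicate 3. At an unadjusted p under 0.05 limma had 5 of the 57, against 1505 of all 16138 genes. edgeR and DESeq2 called 0 of the histone genes after adjustment. The lowest adjusted p was 0.298 (limma), that of Hist1h1t. This gene had the largest positive difference of the 57, at 1.70. It averaged 12.6 normalised counts with UNC0638, against 4.86 with DOX alone. With 3C in both media, UNC0638 lowered 3 and raised none, against 11.6% of all genes called, 7.71% higher and 3.94% lower. The histone median was -0.14 and that of all genes -0.0025, and 53 of 57 histone differences were negative, among them those of all 10 H3 and all 14 H2A genes.

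Hist1h4i (ENSMUSG00000060639, mm10 chr13:22040960-22041362, H4) had 520, 675 and 645 normalised counts with 3C and UNC0638, against 787, 794 and 745 with 3C (-0.35 ± 0.08, adjusted p = 0.0121, limma). Hist1h2an, an H2A gene, had 390, 491 and 471, against 575, 563 and 575 (-0.35 ± 0.10, adjusted p = 0.0302, limma). Hist1h2af, given above, differed by -0.28 ± 0.08 (adjusted p = 0.0195, limma). None of the 3 overlapped between the groups, but they were picked as called, and genes without overlap were not counted over all genes. The Hist1h4i call was lost without DOX with 3C replicate 2 or DOX with 3C and UNC0638 replicate 1, and the Hist1h2af call without DOX with 3C replicate 2 or DOX with 3C and UNC0638 replicate 3. The Hist1h2an call was lost on leaving out any of the 3 libraries with 3C, and without DOX with 3C and UNC0638 replicate 1 or 3.

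One library stood apart in these genes. In DOX with 3C and UNC0638 replicate 1, 55 of the 57 histone genes were below their group mean, with a median deviation of -0.18 on the log2 scale, while in replicate 2 of that group 54 were above it (0.12). S phase genes deviated by -0.07 and 0.10 in the same libraries. In DOX replicate 1, 56 of 57 histone genes were above their group mean (0.11). Without replicate 1 of DOX with 3C and UNC0638, the UNC0638 comparison with 3C called 1 histone gene and its median was -0.04. It called none without DOX with 3C replicate 2, and 9 without DOX with 3C and UNC0638 replicate 2. With the replicate number as a block, it called 5. The part of this library in the result beyond these values was not tested.

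**Figure D4:**
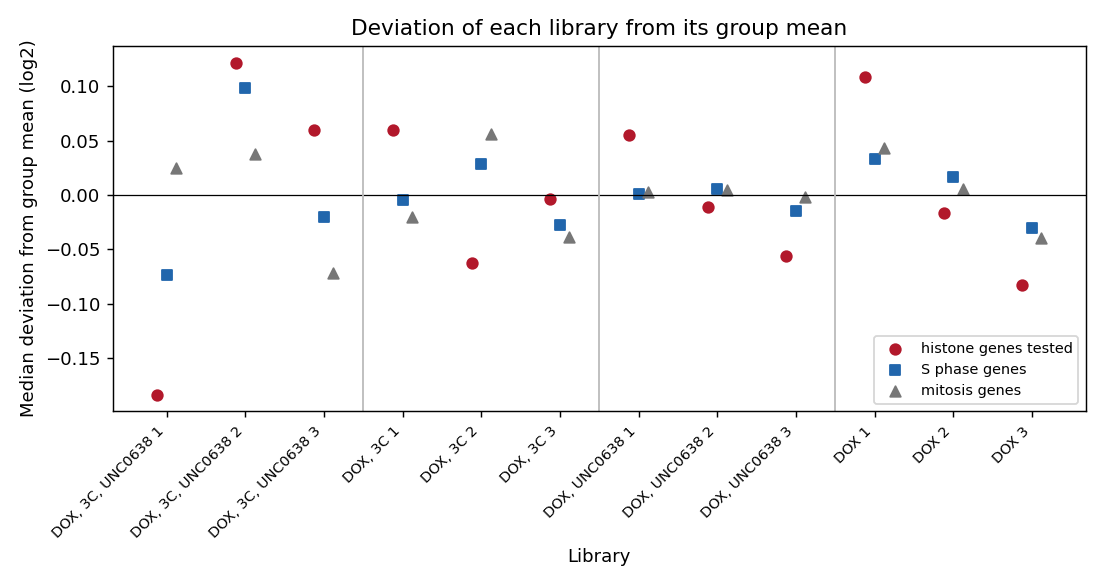
Median deviation, in log2 units, of 57 histone genes, 27 S phase genes and 20 mitosis genes from their group mean in each reprogramming library. Histone genes are lowest in DOX with 3C and UNC0638 replicate 1 (-0.18) and highest in replicate 2 of that group (0.12).

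A difference in the UNC0638 effect between the media with and without 3C was called for 0 of the 57 histone genes, against 0.062% of all genes, 0.0434% positive and 0.0186% negative. limma had 1 of the 57 at an unadjusted p under 0.05, against 1797 of all 16138 genes. edgeR and DESeq2 called 0 of the histone genes after adjustment, and their lowest adjusted p was 0.379 (limma). The median of this difference of differences was -0.08, but 0.0057 without DOX with 3C and UNC0638 replicate 1 and -0.14 without replicate 2 of that group.

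H2A and H2B genes with and without the octamer had like medians in the 3C comparisons. With 3C the 10 tested genes with an octamer had a median of 0.13 and the 15 without it 0.11. With 3C beside UNC0638 these were 0.01 and -0.01. Calls were 1 of 10 and 5 of 15 with 3C (49.4% of all genes), and 2 of 10 and 5 of 15 beside UNC0638 (47.4%). The medians with and without the octamer were -0.04 and -0.08 for UNC0638 without 3C, and -0.15 and -0.13 for UNC0638 with 3C. For the difference of these differences they were -0.10 and -0.05. No test was made of this split.

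Genes that make, process or place histones were described from lists of known function. Of 24 genes of histone transcription and mRNA processing, 3C raised 6 and lowered 6, against 24.7% raised and 24.7% lowered over all genes. With UNC0638 in both media it raised 2 and lowered 8, against 23.9% and 23.5%. No test compared this list or those below with all genes. Cpsf3, the endonuclease that cuts histone pre-mRNA, had 2026 ± 45.9 normalised counts with 3C, against 1635 ± 67.2 with DOX alone (0.31 ± 0.05, adjusted p = 0.00013, limma). Npat had 1149 ± 57.0 with 3C, against 1295 ± 24.6 with DOX alone (-0.17 ± 0.06, adjusted p = 0.0147, limma), a call lost without DOX replicate 1 or DOX with 3C replicate 3. Slbp fell with 3C beside UNC0638, at 853 ± 19.7 with 3C and UNC0638 and 982 ± 12.9 with UNC0638 (-0.20 ± 0.06, adjusted p = 0.00729, limma). Casp8ap2, a component of histone locus bodies also called FLASH, had 1163 ± 33.4 with 3C and UNC0638 and 1530 ± 11.9 with UNC0638 (-0.40 ± 0.05, adjusted p = 6.51e-06, limma). Lsm10 and Lsm11, subunits of the U7 snRNP that guides the cut, were not called in any comparison.

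For UNC0638 with 3C, this list had 2 genes lowered and none raised, against 3.94% and 7.71% of all genes. They were Casp8ap2 (-0.21 ± 0.05) and Pou2f1 (-0.43 ± 0.10), which encodes the octamer-binding factor Oct1. Pou2f1 had 510 ± 24.7 normalised counts with 3C and UNC0638, against 690 ± 94.8 with 3C (adjusted p = 0.00905, limma). The Casp8ap2 call was lost without DOX with 3C replicate 1 or 2 and without DOX with 3C and UNC0638 replicate 3.

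Of 18 histone chaperones and carriers, 3C raised 4 and lowered 6, and beside UNC0638 it raised 4 and lowered 8. Over all genes 49.4% and 47.4% were called. The importin gene Ipo4 rose to 1275 ± 166 normalised counts with 3C, against 782 ± 23.1 with DOX alone (0.70 ± 0.08, adjusted p = 5.23e-07, limma). Asf1b, an H3-H4 chaperone of dividing cells, fell to 770 ± 34.9 with 3C, against 1034 ± 35.8 (-0.42 ± 0.06, adjusted p = 2.11e-05, limma). UNC0638 with 3C lowered 2 of the 18, against 3.94% of all genes: Asf1a (-0.27 ± 0.08) and Nap1l1 (-0.21 ± 0.07). Both calls were lost without DOX with 3C replicate 1 or 2, or DOX with 3C and UNC0638 replicate 1 or 3, and Nap1l1 also without 6 other libraries.

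Replication-independent histones are also made outside S phase. Of 11, 3C raised 2 and lowered 6 (49.4% of all genes called), and beside UNC0638 it raised 2 and lowered 5 (47.4%). H2afv, which encodes an H2A.Z variant, fell to 358 ± 31.6 normalised counts with 3C, against 879 ± 56.3 with DOX alone (-1.29 ± 0.08, adjusted p = 2.61e-10, limma). H3f3b, one of the genes for H3.3, fell to 3742 ± 72.7, against 5054 ± 116 (-0.43 ± 0.04, adjusted p = 2.56e-07, limma), and H2afy, for macroH2A1, rose to 2775 ± 31.1, against 2015 ± 94.0 (0.46 ± 0.05, adjusted p = 7.04e-07, limma). UNC0638 with 3C raised H1f0, the linker histone of slowly dividing cells, to 2638 ± 84.6, against 2046 ± 108 (0.37 ± 0.06, adjusted p = 0.000979, limma).

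S phase and mitosis genes had mostly negative calls where histone calls were mostly positive. Of 27 S phase genes, 3C raised 1, Cdt1, and lowered 12, with a list median of -0.11, and beside UNC0638 it raised 1 and lowered 19 (-0.24). Over all genes 3C called 49.4%, 24.7% of them lower, and beside UNC0638 47.4%, with 23.5% lower. Rrm1, a ribonucleotide reductase subunit, fell to 8369 ± 455 normalised counts with 3C, against 14863 ± 218 with DOX alone (-0.83 ± 0.06, adjusted p = 3.17e-09, limma). Of 20 mitosis genes, 3C lowered 15 and beside UNC0638 18, and raised none. Mki67 fell to 8975 ± 437 with 3C, against 15337 ± 1620 (-0.77 ± 0.09, adjusted p = 7.1e-07, limma). UNC0638 with 3C lowered 10 S phase and 3 mitosis genes (3.94% of all genes), and UNC0638 without 3C called 0 of either (0.607% of all genes). No test compared these lists with the histone genes.

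Cell type markers also differed between the groups. The summed level of 8 fibroblast markers, all with reads, was 47754 to 56025 normalised counts with 3C, against 120763 to 133729 with DOX alone. It was 81815 to 85992 with 3C and UNC0638 and 147576 to 157335 with UNC0638. The collagen genes Col1a2, Col1a1 and Col3a1 made up most of these sums. They were the 3 lowered by 3C without UNC0638, which called none of the other 5 markers. Beside UNC0638, 3C lowered Col1a2 and Col1a1 but raised Prrx1, Thy1, Pdgfrb, Pdgfra and Twist2, with a list median of 0.31. UNC0638 with 3C raised 7 of the 8, against 7.71% of all genes. Over all genes 3C raised 24.7% and lowered 24.7%, and beside UNC0638 it raised 23.9% and lowered 23.5%. 4 epithelial markers summed to 150 to 274 with 3C, against 95.2 to 107 with DOX alone. Most of this was Cdh1, the gene for E-cadherin, and the markers did not move one way: 3C raised Cdh1 and Epcam and lowered Krt8, which had 2.42 ± 1.35 normalised counts with 3C, against 13.3 ± 1.36 with DOX alone. Of 10 pluripotent cell markers 2 reached the level needed for a test, Pou5f1 and Sox2, which are also reprogramming factors that doxycycline switches on, and Dppa4 and Dppa5a were at 0 in all 4 groups. The sums of the list, nearly all from Pou5f1 and Sox2, were 2906 to 3473 with 3C and UNC0638, 4313 to 4493 with 3C, 5992 to 6461 with UNC0638 and 6437 to 6647 with DOX alone. 5 erythroid markers summed to 78.5 to 759 with 3C, against 50.3 to 68.5 with DOX alone. The globin gene Hbb-bt was high in 1 library only, with 475, 24.4 and 28.6 with 3C, against 33.1, 42.0 and 23.4 with DOX alone. Alas2 had 58.1, 25.2 and 28.6, against 9.81, 2.40 and 14.6. Macrophage markers summed to 126 to 422 with 3C, against 94.4 to 372, and endothelial markers to 1.54 to 9.49, against 14.4 to 20.5. The macrophage markers Lyz2, Adgre1, Csf1r and Ptprc were lowest in replicate 1 of each reprogramming group. Cd68 and Cx3cr1 were too, except in DOX with 3C and UNC0638. The part of cell makeup in the histone differences was not tested.

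In the iPSC table, values were raw counts, given here as CPM, reads scaled to the library's total in genes. Histone genes took 0.00603 to 0.00722% of its reads in genes. The labels name the same library kit for both tables, and whether the libraries of the 2 tables captured the same kinds of RNA, with or without a poly(A) tail, was not tested. The histone sums and family shares of this table may therefore not describe all histone mRNA, and levels are not set against those of the other table. Libraries had 21592023 to 25408585 reads in genes. All 10 pluripotent cell markers had reads in both groups. The 70 histone genes summed to 69.6 ± 3.50 CPM with UNC0638 and 62.3 ± 2.11 CPM with DMSO (SD, n = 3 each), and 9 had no read in any library. Hist1h2bc, Hist1h1c and Hist1h4i held 53.0% of histone reads. By family, H2B took 33.6 to 38.0% of a library's histone reads, H1 26.6 to 30.6%, H4 16.9 to 18.9%, H3 9.17 to 11.6% and H2A 7.20 to 9.48%.

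edgeR's quasi-likelihood test called 0 of 30 histone genes tested, against 1.31% of all 17987 genes (1.27% higher, 0.0389% lower). At an unadjusted p under 0.05 it had 5 of the 30, against 2207 of all 17987, and DESeq2 called 0 histone genes. The median log2 difference of the 30 was 0.10, with 16 positive. It was -0.04 without iPSC UNC0638 replicate 1, 0.13 without iPSC DMSO replicate 3, and 0.0032 with no filter on low counts. Hist1h4i had the lowest adjusted p, with 7.27, 7.42 and 6.90 CPM with UNC0638, against 5.13, 5.67 and 5.67 CPM with DMSO (0.40 ± 0.12, adjusted p = 0.19, edgeR). Hist1h1c had 15.1, 15.0 and 16.0 CPM, against 11.6, 14.0 and 12.3 (0.29 ± 0.10, adjusted p = 0.246, edgeR). Neither gene passed the adjusted threshold. Their values did not overlap between the groups, but genes without overlap were not counted over all 17987, so this is not read as a difference. Hist1h2bc had 15.9, 18.1 and 14.6 CPM, against 12.2, 14.7 and 12.5 CPM, and overlapped. The other families gave no call either: among H3 genes Hist1h3c had 1.41 ± 0.224 CPM with UNC0638 and 1.77 ± 0.328 with DMSO (-0.31 ± 0.24, adjusted p = 0.635, edgeR). None of the lists of histone processing, chaperone, replication-independent histone, S phase or mitosis genes had a call in this table, while 6 of 8 fibroblast markers were raised (summed level 2417 to 2454 CPM with UNC0638, against 1351 to 1691 CPM with DMSO). The part of these markers in the histone values was not tested.

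**Figure D5:**
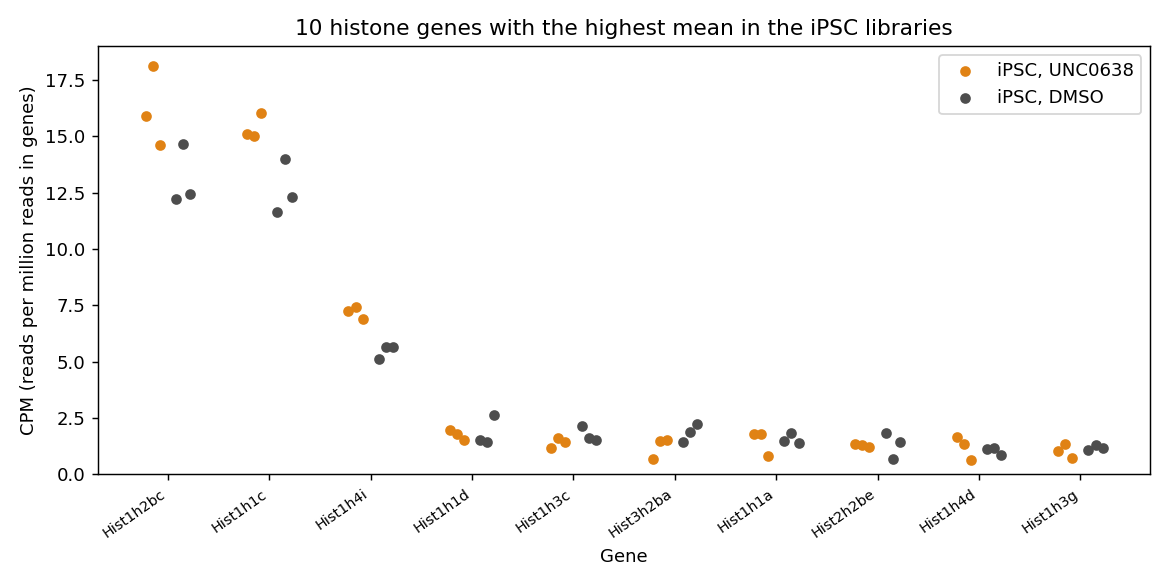
CPM of the 10 histone genes with the highest mean in the iPSC libraries, 3 points for UNC0638 left of 3 for DMSO. Hist1h2bc, Hist1h1c and Hist1h4i stand above the rest. The points for Hist1h1c and Hist1h4i do not overlap between the groups, but neither gene was called.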

How the data were processed

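RNA was measured by sequencing in 12 reprogramming and 6 iPSC libraries; the other 10 samples of the series were not analysed here. The tools named, per the submitters' processing notes, were HTSeq 0.5.4p3, TopHat2 2.1.0, DESeq and SAMtools 1.8, and the build mm10; whether strand was used in counting is not given in the sources used here. The authors deposited the reprogramming table as signal, read counts divided by 1 factor per library; dividing by each column's step gave whole reads for 100% of values above 0 (tolerance 0.01 read). They deposited the iPSC table as raw counts. In the first of these, 2 columns fitted none of the listed samples and stayed out. Symbols were found for 54042 of 54109 and 54723 of 54838 identifiers, in the reference tables supplied, which also gave positions.

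The reprogramming values were tested with limma 3.58.1 on log2(value + 1), which understates changes of low genes, with a mean-variance trend and genes at 10 or more in at least 3 libraries. On the recovered reads edgeR 4.0.16 called 8018, 7732, 2096, 94 and 11 genes for 3C without and with UNC0638, UNC0638 with and without 3C, and the interaction. The iPSC counts were tested with edgeR (TMM, default filter), and DESeq2 1.42.0 was an alternative, in R 4.3.3. The fits were tested on simulated data, drawn with the spread estimated from the real reads. Replicates differed by more than counting error (chi-square per degree of freedom 3.14 to 11.0 over 18 pairs).

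Same-numbered libraries passed a minimum correlation of 0.1 between their deviations in 3 comparisons. The correlations were 0.106 to 0.156 for 3C without UNC0638, 0.155 to 0.205 for 3C with UNC0638 and 0.110 to 0.191 for UNC0638 with 3C. UNC0638 without 3C, drawn from the same 12 libraries, had 0.0940 to 0.223, and only its lowest value missed the minimum. These weak correlations alone therefore do not settle which libraries are pairs. The macrophage marker Lyz2 was lowest in replicate 1 of each group. In replicates 1, 2 and 3 it had 33.8, 211 and 215 normalised counts with 3C and UNC0638, and 43.9, 261 and 181 with 3C. It had 23.9, 162 and 126 with UNC0638, and 20.8, 167 and 99.6 with DOX alone. Whether same-numbered libraries share a culture or embryo was not tested. The correlations and these values come from the data, not the labels, and the main fit used no block.

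The members and lists were chosen with earlier results of these data known. Named were all called members, the 2 most abundant of each family and the most abundant of each cluster per table; other genes were up to 3 called per list and comparison with the smallest p, plus Slbp, Npat, Casp8ap2, Lsm10 and Lsm11.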

Additional observations from a re-analysis of the deposited data

How the results depend on the processing

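Histone counts that moved by over 1.5 times were these. For UNC0638 with 3C (3 called), the replicate block gave 5 and edgeR with the replicate block, chosen after seeing the data, 8; leaving out 1 library gave 0 to 9. For 3C without UNC0638 (13), the replicate block gave 20, and leaving out 1 library gave 5 to 19. For 3C with UNC0638 (12), no filter on low values gave 7 and leaving out 1 library 4 to 17. The cause was not tested. The replicate block moved no other histone count by over 1.5 times: it gave 13 for 3C with UNC0638 and 0 for UNC0638 without 3C, the interaction and the iPSC, where the numbers were not taken as pairs (correlations of 0.0940 to 0.223 and 0.0710 to 0.156). Over all genes the replicate block called 2871 for UNC0638 with 3C (1880 without it), 409 for UNC0638 without 3C (98), 413 for the interaction (10) and 407 for the iPSC (236). For histone genes UNC0638 without 3C, the interaction and the iPSC gave 0 under each alternative run.

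Of 28 calls of a histone gene in a comparison, 7 stood under every alternative run that tested the gene. They were Hist4h4 and Hist1h2af with 3C in both media, Hist1h1t and Hist1h3f with 3C without UNC0638, and Hist1h2ab with 3C beside UNC0638. Hist1h1t was too low to be tested under a stricter filter of 50 normalised counts, so it had 20 such runs, against 21 for the others. Over all 28, leaving out 1 library kept 258 of 336 calls and the other settings kept 232 of 249; none reversed. A member with few reads, such as Hist1h1t, is limited by counting error, and differences of the size of most members' (a median standard error of 0.08) lie near what 3 libraries a group can show.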
